A study of Danio rerio with 6 samples.

Results

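The mitochondrial solute carriers of the slc25 family were followed in cardiomyocytes from the atrioventricular canal, the ring between atrium and ventricle, of adult zebrafish hearts. Members were taken as every row of the gene count tables whose symbol starts with slc25a, which gave 56 genes of 25281. A row spelled in capitals, SLC25A29 (ENSDARG00000098849, with 10 counts in the GFP-negative and 15 in the GFP-positive group), fell outside that rule and was not counted. The rule also leaves out ucp1, ucp2, ucp3 and mtch2, family members under other symbols, so they are in none of the family counts and shares below. The comparison was between 3 GFP-positive and 3 GFP-negative RNA-seq libraries of sorted cells and asks how transcripts differ between canal cardiomyocytes with and without β-catenin-driven transcription.

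All fish were 4 to 8 months old and carried 3 transgenes: Tg(myl7:GAL4db-TCFΔC-2A-mCherry), together with Tg(UAS:EGFP) and, for nuclear mCherry, Tg(myl7:NLS-mCherry). The myl7 promoter, active in cardiomyocytes, drives a GAL4 DNA-binding domain joined to a shortened TCF, so that EGFP under GAL4 target sequences (UAS) marks cardiomyocytes with active β-catenin, and mCherry marks cardiomyocytes as such. GFP-positive libraries are named β-cat ON and GFP-negative libraries β-cat OFF in the labels. The titles gave the groups. For the GFP-negative group the label of the sorted fraction, however, reads mCherry-negative and EGFP-positive, against its own titles, and the gate of that group therefore stays uncertain. No label ties the replicates to different fish or different sorts, so the spread behind each p-value may be technical. Values of single libraries are given below in the order of replicates 1, 2 and 3.

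Most carriers of the SLC25 family sit in the inner mitochondrial membrane and exchange the metabolites that the matrix consumes and produces. ADP/ATP carriers export ATP against ADP, the phosphate carrier supplies the phosphate for ATP synthesis, and the carnitine/acylcarnitine carrier brings in fatty acids for oxidation. Aspartate/glutamate and oxoglutarate carriers move reducing equivalents from the cytosol in the malate-aspartate shuttle. The heart, which depends on oxidative ATP production, is rich in these proteins. In mammals SLC25A4 is the main ADP/ATP carrier of heart and skeletal muscle, and SLC25A5 is known from many proliferating and other tissues.

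Several properties of the libraries bear on every value below. Totals were 14783352 to 19750914 counts per library. Mitochondrially encoded transcripts took 11.9% to 15.7% of counts in GFP-negative and 35.6% to 44.9% in GFP-positive libraries. All 10 cardiomyocyte markers were detected in each library, and together they took 8.01% to 8.59% of GFP-negative and 3.58% to 4.27% of GFP-positive counts. Summed markers of endocardium (0.00899% to 0.0206% against 0.0312% to 0.0590%), fibroblasts (0.0125% to 0.0379% against 0.0614% to 0.0982%), epicardium (0.0276% to 0.0395% against 0.0938% to 0.154%) and erythrocytes (0.0473% to 0.0674% against 0.153% to 0.241%) were higher in every GFP-positive library. Macrophage markers overlapped between the groups (0.0289% to 0.0938% against 0.0233% to 0.0971%), as did thrombocyte markers (0.00128% to 0.00301% against 0.00258% to 0.00730%). All endocardial markers and all 8 matched fibroblast markers had counts in every library. Of the epicardial markers, wt1a and wt1b were at 0 in at least 1 GFP-positive library, as was gata1a of the erythrocyte markers. wt1a ran against the epicardial sum, with 29 counts in the GFP-negative and 3 in the GFP-positive group, too few to test. All 8 tested epicardial markers had positive fold changes. The GFP-positive libraries had counts for 6, 6 and 5 of the 7 matched erythrocyte markers. GFP-positive replicate 3 had the fewest members with at least 10 counts, 28 of 56, against 37 and 39 in the other GFP-positive and 42 to 44 in the GFP-negative libraries. The part of these differences in the results was not tested.

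Transcripts of the slc25 family took less of the counts in GFP-positive libraries. The 56 members together made up 2.24%, 2.22% and 2.34% of all counts in the GFP-negative libraries and 0.918%, 0.891% and 0.958% in the GFP-positive libraries. The groups did not overlap, and the means were 2.27 ± 0.0639% and 0.922 ± 0.0333% (SD, n = 3 each). With mitochondrially encoded counts left out of the totals, the shares were 2.63% to 2.65% and 1.49% to 1.67%, again without overlap. In bulk samples, fewer cells of a type and less RNA per cell cannot be told apart.

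**Figure D1:**
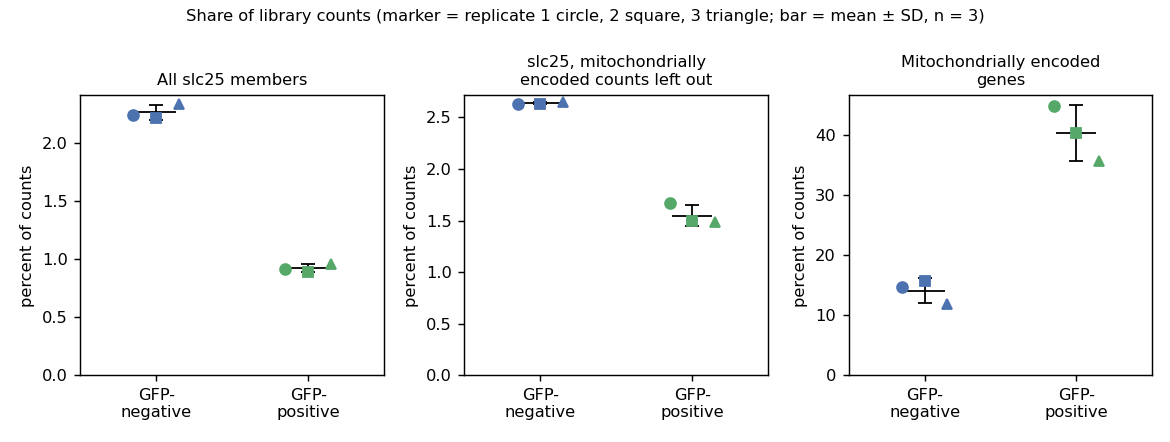
Percent of library counts (y axes, from 0) taken by all slc25 members, by slc25 members after mitochondrially encoded counts are left out of the total, and by mitochondrially encoded genes, in GFP-negative and GFP-positive libraries (points are libraries, bars the mean ± SD, n = 3). The slc25 share lies at 2.22% to 2.34% in GFP-negative and 0.891% to 0.958% in GFP-positive libraries, and the mitochondrially encoded share runs the other way.

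Of the 56 members, 43 had enough counts to be tested, and 13 did not. At an edgeR adjusted p under 0.05 (Benjamini-Hochberg over 13490 genes), 4 members fell in GFP-positive libraries and 39 did not pass, so that 9.30% of tested members were called, against 4.21% of all tested genes. They were the ADP/ATP carrier slc25a5, the oxoglutarate carrier slc25a11, the aspartate/glutamate carrier slc25a12 and the iron carrier slc25a28. Of all tested genes, 2.13% fell. No member rose, against 2.08% of all tested genes. At an unadjusted p under 0.05, edgeR had 11 lower members and 1 higher member, against 1320 lower and 1229 higher of all 13490 tested genes. DESeq2 called 9 lower members and 1 higher after adjustment, against 729 lower (5.40%) and 938 higher genes in all. With sample weights, limma-voom called 2 lower and 0 higher members, against 244 lower (1.81%) and 355 higher genes in all.

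Most tested members leaned towards GFP-negative libraries. Fold changes were negative for 35 of 43 (81.4%, against 49.5% of all tested genes), and the median log2 fold change was -0.56, against 0.01 over all tested genes. All 3 GFP-positive libraries lay below all 3 GFP-negative libraries for 16 members (37.2%, against 17.6% of all tested genes) and above them for 1 (2.33%, against 12.1%). Over both directions, 29.6% of all tested genes had separate groups. A gene with few or no counts in 1 group passes the expression filter through the other group. Among the 16 members with lower GFP-positive libraries, slc25a4, slc25a27 and slc25a47b (7, 2 and 0 counts in GFP-positive libraries) passed in this way. The counts and shares of members given here therefore describe the members that passed and not all 56. The cardiomyocyte markers were lower in the same libraries, with 6 of 10 called lower (2.13% of all tested genes) and a median log2 fold change of -0.84.

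**Figure D2:**
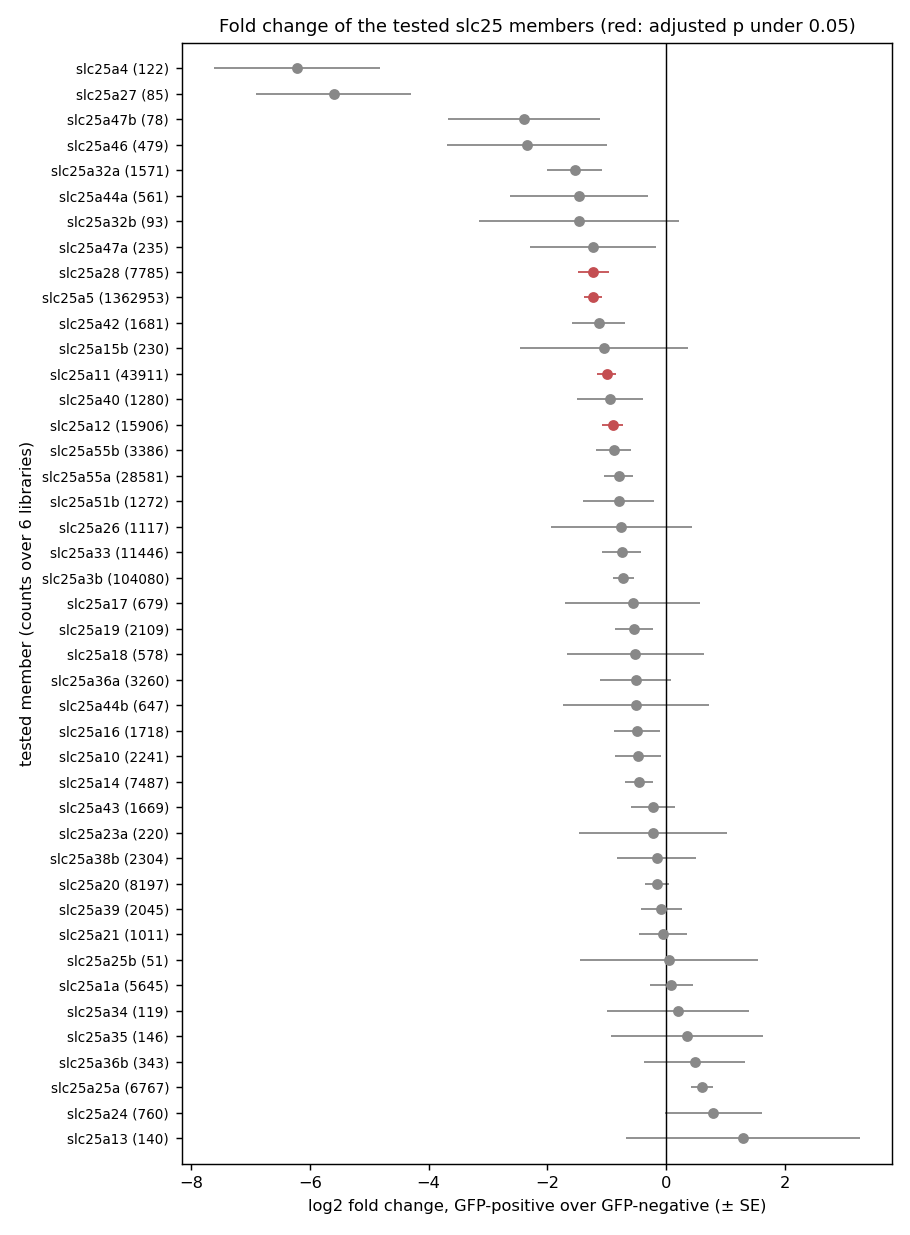
Fold change (x axis, log2, GFP-positive over GFP-negative, ± SE of the edgeR fit) of the 43 tested slc25 members, ordered by fold change, with counts over the 6 libraries in brackets and the 4 called members in red. Members with few counts have wide errors, and slc25a4 and slc25a27, at -6.22 and -5.60, rest on 1 count each in the GFP-positive group.

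The ADP/ATP carriers supplied most of the family's counts through a single gene. slc25a5 (ENSDARG00000092553), which exchanges cytosolic ADP for matrix ATP, made up 86.2%, 84.7% and 83.5% of slc25 counts in the GFP-negative libraries and 79.6%, 80.2% and 78.8% in the GFP-positive libraries. Its share of the family was thus lower in every GFP-positive library. These are shares of counts, which also grow with transcript length, and no transcript lengths were used here, so they do not rank the carriers by number of transcripts. Per library, slc25a5 stood at 20839, 16204 and 17787 CPM (TMM-scaled counts per 1000000 counts) in the GFP-negative libraries. In the GFP-positive libraries it stood at 8377, 7341 and 7653 CPM. The groups were far apart, and slc25a5 fell 2.35-fold, from 18276 ± 2356 to 7790 ± 531 CPM (SD, n = 3 each; log2 fold change -1.23 ± 0.15 SE, edgeR adjusted p = 0.0103, 3.77e-10 to 0.0648 over 15 alternatives). The call was lost without GFP-negative replicate 3 (adjusted p = 0.0559), GFP-positive replicate 1 (0.0591) or GFP-positive replicate 2 (0.0648), with fold changes of -1.27, -1.23 and -1.14. RefSeq (GRCz12tu) lists no gene that overlaps slc25a5.

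The other ADP/ATP carriers had few counts. slc25a4 (ENSDARG00000027355) had 48, 28 and 45 counts in the GFP-negative libraries and 0, 1 and 0 in the GFP-positive libraries. That is a ratio of 93.4 with an exact 95% counting interval of 16.5 to 3720, and edgeR did not pass it (adjusted p = 0.0513, 0.00559 to 0.226 over the alternatives). slc25a6 (ENSDARG00000005853) had 0, 4 and 3 counts in GFP-negative and 4, 4 and 5 in GFP-positive libraries, too few to test. The 3 ADP/ATP carrier genes are close copies, and their low counts are uncertain to the degree that counting could assign reads of slc25a5 to them or theirs to slc25a5. Counting intervals here and below cover counting error only, since amplified cDNA without molecular identifiers was counted.

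The phosphate carrier, which brings in the phosphate that ATP synthase joins to ADP, also came from a single gene. slc25a3b (ENSDARG00000025566) stood at 1277, 1101 and 1375 CPM in GFP-negative and at 833, 605 and 839 CPM in GFP-positive libraries. The groups did not overlap, but the difference did not pass the threshold (1251 ± 139 against 759 ± 133 CPM, log2 fold change -0.72 ± 0.18, adjusted p = 0.0714, 0.0162 to 0.306 over the alternatives). Its copy slc25a3a had 2 counts in all, both in GFP-negative libraries. Relative to slc25a5, slc25a3b was higher in GFP-positive libraries, with 61.3, 67.9 and 77.3 counts per 1000 slc25a5 counts in GFP-negative libraries and 99.4, 82.5 and 110 in GFP-positive libraries.

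**Figure D3:**
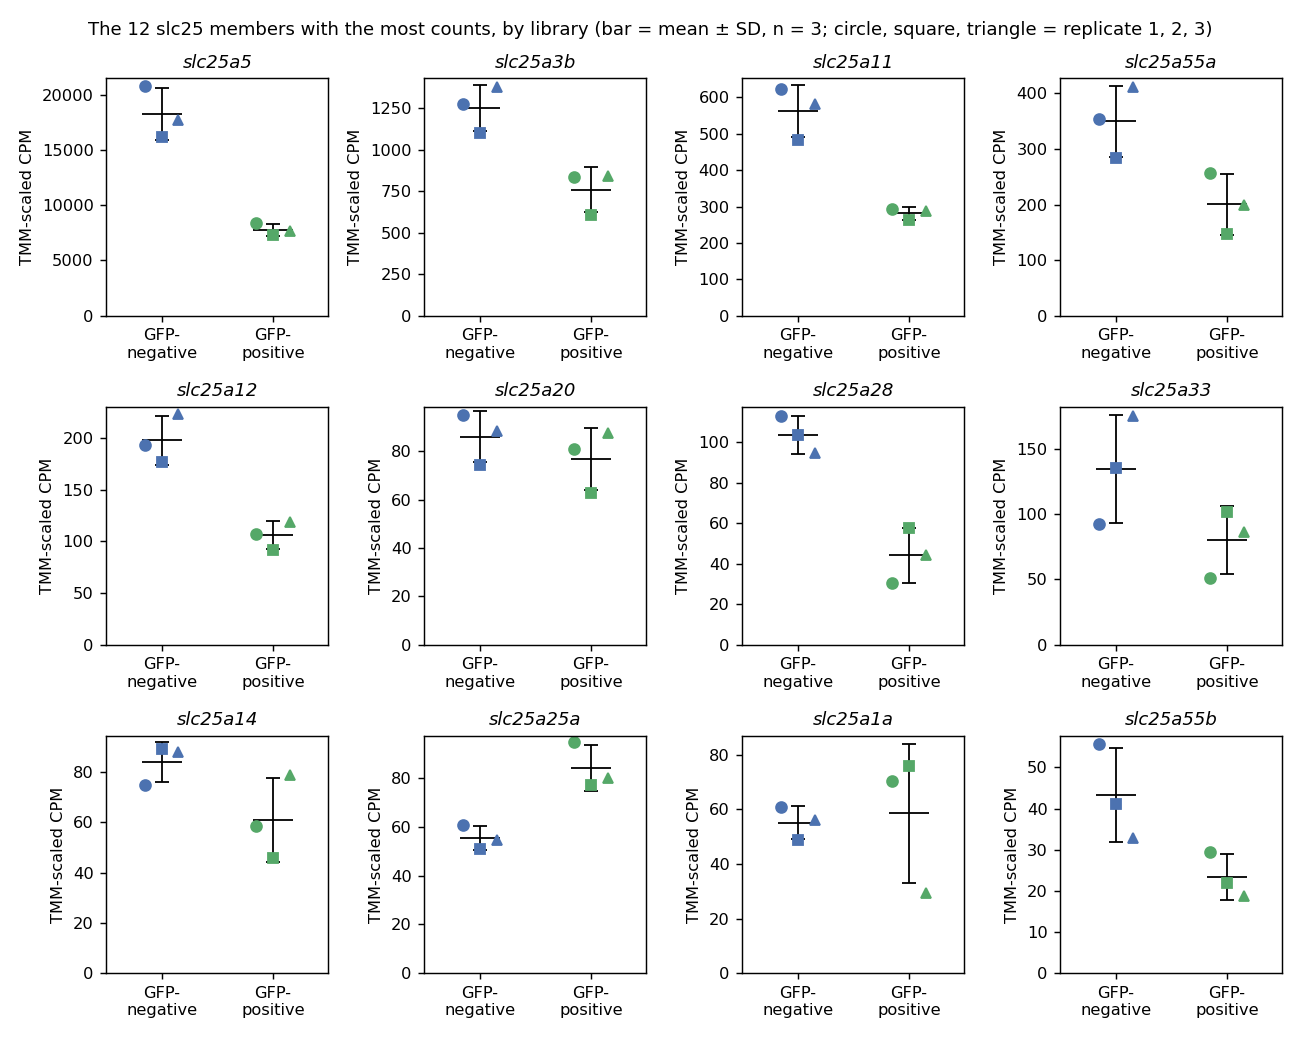
TMM-scaled CPM (y axes, linear from 0) of the 12 slc25 members with the most counts, by library, in GFP-negative and GFP-positive groups (points are libraries, bars the mean ± SD, n = 3). slc25a5, slc25a11, slc25a12 and slc25a28, the called members, are lower in all 3 GFP-positive libraries, slc25a20 overlaps between groups, and slc25a25a is higher in all 3.

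Of the 3 carriers of the malate-aspartate shuttle, 2 fell in GFP-positive libraries and the third, slc25a13, had few counts. slc25a11 (ENSDARG00000035741), which exchanges matrix 2-oxoglutarate for malate, stood at 622, 483 and 582 CPM in GFP-negative libraries and 294, 262 and 287 CPM in GFP-positive libraries. Every GFP-positive library was well below the lowest GFP-negative library, and slc25a11 fell 2.00-fold (562 ± 71.3 to 281 ± 16.9 CPM, log2 fold change -1.001 ± 0.16, edgeR adjusted p = 0.0215, 5.58e-06 to 0.134 over the alternatives). Its call was lost without GFP-negative replicates 1 and 3 (adjusted p = 0.134 and 0.115) and GFP-positive replicates 1 and 2 (0.0704 and 0.0699), and with limma-voom (0.0538).

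slc25a12 (ENSDARG00000102362), which exports aspartate from the matrix in exchange for glutamate, stood at 193, 177 and 223 CPM in GFP-negative libraries and 107, 91.9 and 119 CPM in GFP-positive libraries. The groups were separate, and slc25a12 fell 1.87-fold (198 ± 23.5 to 106 ± 13.5 CPM, log2 fold change -0.90 ± 0.18, edgeR adjusted p = 0.0395, 0.00117 to 0.225 over the alternatives). Of the 6 fits that left out 1 library, only that without GFP-positive replicate 3 kept this call (adjusted p = 0.0410). It was 0.225, 0.0882 and 0.198 when a GFP-negative library (replicate 1, 2 or 3) was left out and 0.102 or 0.0918 without GFP-positive replicate 1 or 2. With every library in the fit, the call was lost with DESeq2's size factors (edgeR adjusted p = 0.0541). It was also lost with mitochondrially encoded genes removed (0.0512) and with limma-voom (0.0719). The second aspartate/glutamate carrier, slc25a13 (ENSDARG00000099353), had 10, 21 and 16 counts in GFP-negative libraries and 0, 0 and 93 in GFP-positive libraries. Its counts in the GFP-positive group thus came from replicate 3 alone, and its fold change of 1.30 ± 1.97 (adjusted p = 0.853, 0.0536 to 0.998 over the alternatives) turned to -6.82 without that library.

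Enzymes that work with these carriers were lower too. Of 6 tested malate-aspartate shuttle enzymes 3 fell and 3 did not pass, with a median log2 fold change of -0.95 (over all tested genes 2.13% fell, with a median of 0.01). The mitochondrial malate dehydrogenase mdh2 went down from 4522 ± 474 to 2161 ± 254 CPM on average (-1.07 ± 0.16 on the log2 scale, adjusted p = 0.0177). The cytosolic aspartate aminotransferase got1 fell by 1.30 ± 0.18 on the log2 scale and the mitochondrial got2a by 1.05 ± 0.15 (adjusted p = 0.0137 and 0.0163).

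The carnitine/acylcarnitine carrier overlapped between the groups, while several of its partner genes fell. slc25a20 (ENSDARG00000040401), the carrier that exchanges acylcarnitines for free carnitine, had 95.1, 74.4 and 88.4 CPM in GFP-negative libraries and 81.0, 62.6 and 87.5 CPM in GFP-positive libraries. These ranges overlapped (log2 fold change -0.16 ± 0.20, adjusted p = 0.816, 0.489 to 0.998 over the alternatives). slc25a29 (ENSDARG00000057352), a carrier of basic amino acids in mammals that was first described as carnitine-like, had 3, 8 and 6 counts in GFP-negative libraries and 0 in each GFP-positive library, at least 4.37-fold lower against 3 counts over the group. It overlaps slc25a47a in the RefSeq annotation.

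Of 9 tested partners of the carnitine shuttle, 3 fell and 6 did not pass, against 2.13% lower over all tested genes, and their median log2 fold change was -1.18 (0.01 over all tested genes). fabp3, which carries fatty acids in the cytosol, fell 7.58-fold, 2191 ± 601 against 289 ± 67.5 CPM (-2.92 ± 0.26 on the log2 scale, adjusted p = 0.00526). The carnitine palmitoyltransferases of the outer membrane, cpt1ab and cpt1b, fell by 1.18 ± 0.24 and 1.19 ± 0.23 on the log2 scale (adjusted p = 0.0434 and 0.0385). cpt2, which acts on the matrix side of slc25a20, averaged 48.2 ± 3.06 and 36.1 ± 2.26 CPM in the GFP-negative and GFP-positive groups, a difference that missed the threshold (-0.42 ± 0.20, adjusted p = 0.322). The difference between slc25a20 and its partners was not tested. Relative to slc25a5, slc25a20 had 4.56, 4.59 and 4.97 counts per 1000 in GFP-negative libraries and 9.66, 8.53 and 11.4 in GFP-positive libraries.

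Glutamate carriers had negative fold changes that did not pass the test. slc25a55a (ENSDARG00000020893), for which RefSeq gives slc25a22 as an earlier symbol, the name of a glutamate carrier in mammals, stood at 354, 284 and 412 CPM in GFP-negative libraries and 257, 147 and 199 CPM in GFP-positive libraries. It was lower in each GFP-positive library, with a log2 fold change of -0.80 ± 0.25 (adjusted p = 0.123, 0.0489 to 0.406 over the alternatives, the lowest with DESeq2). Its copy slc25a55b stood at 43.3 ± 11.5 and 23.4 ± 5.51 CPM (-0.89 ± 0.30, adjusted p = 0.158). Copy a made up 86.4% to 92.6% of the counts of the 2 copies in GFP-negative and 87.0% to 91.3% in GFP-positive libraries, so the balance of the copies overlapped between the groups. slc25a18, the other mammalian glutamate carrier name, had 121, 147 and 104 counts in GFP-negative libraries and 62, 142 and 2 in GFP-positive libraries (log2 fold change -0.52 ± 1.15, adjusted p = 0.911). slc25a22a had 13 and 6 counts over the groups, and slc25a22b had no count in any library. A count of 0 allows up to 3 counts.

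Further amino acid carriers were at low level. slc25a44a and slc25a44b, copies of a branched-chain amino acid carrier known from mice, showed log2 fold changes of -1.47 ± 1.17 and -0.51 ± 1.23 (adjusted p = 0.634 and 0.917), and each had 1 count in GFP-positive replicate 3. Copy a made up 43.6% to 61.1% of their summed counts in GFP-negative libraries and 43.3% and 30.2% in GFP-positive replicates 1 and 2 (exact 95% intervals 33.6% to 53.3% and 24.5% to 36.4%). The ornithine carrier copies slc25a15a and slc25a15b had 40 and 230 counts over the 6 libraries.

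The iron and glycine carriers that feed haem synthesis gave mixed values. slc25a28 (ENSDARG00000052994), mitoferrin 2, an importer of iron in many tissues, stood at 113, 103 and 94.6 CPM in GFP-negative libraries and 30.6, 57.7 and 44.1 CPM in GFP-positive libraries. All GFP-positive libraries were lower, and slc25a28 fell 2.35-fold (104 ± 9.26 to 44.1 ± 13.5 CPM, log2 fold change -1.23 ± 0.26, edgeR adjusted p = 0.0473, 0.00126 to 0.226 over the alternatives). This call was lost in each of the 6 fits that left out 1 library. Leaving out GFP-negative replicate 1, 2 or 3 gave an adjusted p of 0.226, 0.139 or 0.163, and leaving out GFP-positive replicate 1, 2 or 3 gave 0.0703, 0.0688 or 0.0616. With every library in the fit, the call was lost with DESeq2's size factors (edgeR adjusted p = 0.0541) and with mitochondrially encoded genes removed (0.0515).

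slc25a37 (ENSDARG00000073743), mitoferrin 1, which zebrafish need for haem in red cells, had 6, 7 and 13 counts in GFP-negative and 0, 2 and 1 in GFP-positive libraries, a ratio of 6.69 (exact 95% counting interval 2.05 to 34.5) with too few counts to test. The erythrocyte markers ran the other way, with 3 of 6 tested called higher (2.08% of all tested genes) and a median log2 fold change of 1.77 (0.01 over all tested genes). Of the glycine carriers, slc25a38b had 16.1, 29.4 and 24.3 CPM in GFP-negative libraries and 4.81, 18.5 and 38.98 CPM in GFP-positive libraries, and the GFP-positive libraries spanned the whole GFP-negative range (log2 fold change -0.16 ± 0.67, adjusted p = 0.956, 0.356 to 0.999 over the alternatives). slc25a38a had 30 of its 35 counts in GFP-positive replicate 2.

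A single tested member had all GFP-positive libraries above all GFP-negative libraries. slc25a25a (ENSDARG00000010572), a calcium-regulated carrier that exchanges ATP-magnesium for phosphate and so sets the adenine nucleotide pool of the matrix, stood at 60.7, 50.9 and 54.7 CPM in GFP-negative libraries and 94.8, 77.2 and 80.0 CPM in GFP-positive libraries. The groups were separate, with means of 55.4 ± 4.97 and 84.0 ± 9.43 CPM, and the edgeR test did not pass (log2 fold change 0.60 ± 0.19, adjusted p = 0.129, 0.0224 to 0.466 over the alternatives, the lowest with DESeq2). Its fold change was positive under all 15 alternatives. slc25a25a overlaps acaa2, a gene of fatty acid oxidation, in the RefSeq annotation, and how counting treated overlapping genes is not given in the sources used here. Of the other calcium-regulated members, slc25a24 had a log2 fold change of 0.79 ± 0.82, slc25a23a -0.22 ± 1.25 and slc25a25b 0.04 ± 1.5001 (adjusted p = 0.748, 0.971 and 0.997).

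Carboxylate carriers other than slc25a11 did not pass the test. The citrate carrier slc25a1a, which exports citrate for lipid synthesis, had 60.7, 48.8 and 56.0 CPM in GFP-negative libraries and 70.5, 75.9 and 29.4 CPM in GFP-positive libraries. GFP-positive replicates 1 and 2 were above and replicate 3 below all GFP-negative libraries (log2 fold change 0.09 ± 0.36, adjusted p = 0.957). The dicarboxylate carrier slc25a10 and the oxodicarboxylate carrier slc25a21 showed log2 fold changes of -0.48 ± 0.39 and -0.06 ± 0.41 (adjusted p = 0.643 and 0.977).

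No carrier of nucleotides, folate or cofactors passed edgeR's test. Of 11 tested, 10 had negative fold changes, against 49.5% of all tested genes, and 2 were lower at an unadjusted p under 0.05, against 1320 of 13490 genes. slc25a33, a pyrimidine nucleotide carrier, stood at 92.1, 136 and 175 CPM in GFP-negative libraries and 51.02, 102 and 86.3 CPM in GFP-positive libraries, ranges that overlapped (-0.75 ± 0.33, adjusted p = 0.276). The lowest fold changes with separate groups were those of slc25a32a, a folate or FAD carrier, and slc25a42, a coenzyme A carrier, at -1.54 ± 0.46 and -1.14 ± 0.45 (adjusted p = 0.117 and 0.221). slc25a42 passed only without GFP-positive replicate 3 (adjusted p = 0.0319, the lowest of 0.0319 to 0.641 over the alternatives), and slc25a32a only with the DESeq2 test (0.0356, the lowest of 0.0356 to 0.499). slc25a36a, the second pyrimidine nucleotide carrier, made up 88.3% to 96.0% of the counts of its copies in GFP-negative libraries, 95.3% and 85.6% in GFP-positive replicates 1 and 2, and 53.9% in GFP-positive replicate 3 (exact 95% interval 46.6% to 61.1%). Fold changes were -0.52 ± 0.59 for slc25a36a and 0.48 ± 0.85 for slc25a36b (adjusted p = 0.782 and 0.881).

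Members named for uncoupling proteins did not pass the test. Outside the symbol rule, ucp2 and ucp3 did not pass either, with log2 fold changes of -0.63 ± 0.24 and -1.37 ± 0.54 (edgeR adjusted p = 0.195 and 0.221). ucp1 had 0 counts in each GFP-negative library and 0, 33 and 3 in GFP-positive libraries, and was not tested. slc25a14, for which RefSeq lists UCP5 as a synonym, stood at 83.9 ± 7.82 and 61.0 ± 16.6 CPM with overlapping groups (-0.46 ± 0.24, adjusted p = 0.383). slc25a27 had 16, 32 and 36 counts in GFP-negative and 0, 1 and 0 in GFP-positive libraries, a ratio of 64.8 (exact 95% counting interval 11.3 to 2591), and did not pass (adjusted p = 0.0552, 0.0317 to 0.227 over the alternatives). The glutathione carriers slc25a39 and slc25a40 showed log2 fold changes of -0.08 ± 0.35 and -0.94 ± 0.56 (adjusted p = 0.959 and 0.468). slc25a46, an outer-membrane member linked to mitochondrial fission, had 111, 150 and 158 counts in GFP-negative libraries and 37, 23 and 0 in GFP-positive libraries (-2.35 ± 1.35, adjusted p = 0.450).

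More members had 0 to 2 counts in GFP-positive than in GFP-negative libraries, most of all in GFP-positive replicate 3. Over all 56 members, 8, 6 and 7 had 0 to 2 counts in the GFP-negative libraries and 17, 15 and 25 in the GFP-positive libraries. For 8 members, among them slc25a26, slc25a17, slc25a18 and slc25a46, GFP-positive replicate 3 had 0 to 2 counts while both other GFP-positive libraries had at least 10. The same held for 1 member, slc25a23a, in GFP-positive replicate 1 and for none in the other libraries. How often any of these patterns held over all genes was not computed, so none is shown to be particular to slc25 members. Total counts were lower in every GFP-positive library. Mitochondrially encoded transcripts took 35.6% to 44.9% of them, against 11.9% to 15.7% in GFP-negative libraries, which leaves fewer counts for other genes. The part of this difference in the counts of 0 to 2 was not tested. Across all tested genes, each other library correlated least with GFP-positive replicate 3 (0.706 to 0.757, log CPM). The spread was not confined to that library. GFP-positive replicates 1 and 2 correlated at 0.761 with each other, below their 0.783 to 0.823 with GFP-negative libraries. GFP-negative libraries correlated at 0.956 to 0.973 among themselves. slc25a26, a carrier of S-adenosylmethionine, had 181, 160 and 1 counts in GFP-positive replicates 1, 2 and 3, against 231, 230 and 314 in the GFP-negative libraries. Of the 13 untested members, 5 (slc25a24l, slc25a23b, slc25a3a, slc25a51a and slc25a22b) had at most 3 counts in each group.

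**Figure D4:**
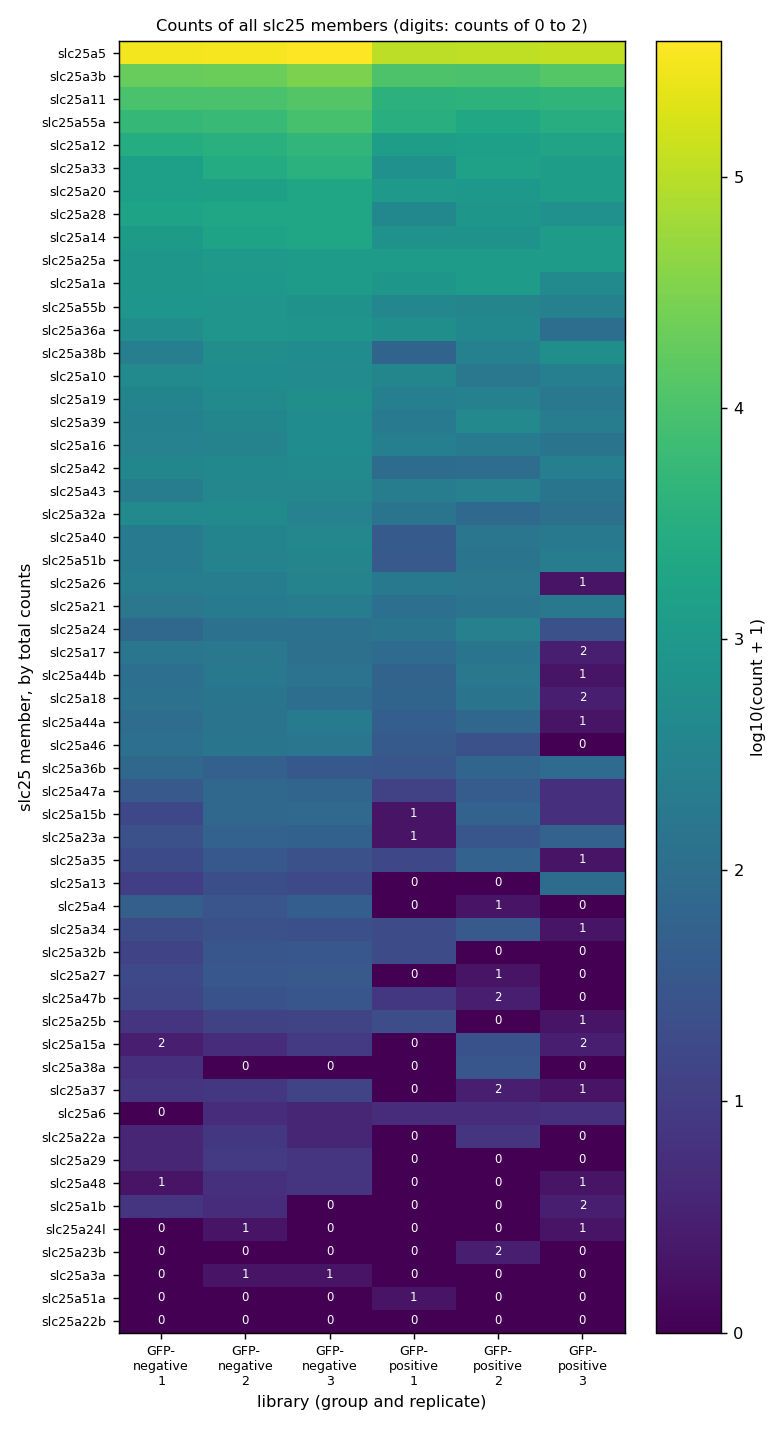
Counts of all 56 slc25 members (rows, ordered by total counts) in the 6 libraries (columns), coloured by log10 of count + 1, with counts of 0 to 2 printed as digits. Such counts occur for 6 to 8 members in the GFP-negative columns and for 17, 15 and 25 in the GFP-positive columns, and the top 4 rows keep their order in every library.

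Set against slc25a5, the family's largest source of counts, other carriers took a greater part in GFP-positive libraries. Members other than slc25a5 summed to 160, 181 and 197 counts per 1000 slc25a5 counts in GFP-negative libraries and 257, 246 and 269 in GFP-positive libraries. Such ratios within a library do not depend on scaling. Of the 24 members with the next most counts, 9 were higher per slc25a5 count in all 3 GFP-positive libraries, 0 were lower and 15 overlapped. Over all tested genes 42.3% were higher and 3.65% lower in this way, so the share of 37.5% among these carriers is near the background. The widest gap was that of slc25a25a, with 2.92, 3.14 and 3.07 per 1000 in GFP-negative libraries and 11.3, 10.5 and 10.5 in GFP-positive libraries.

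**Figure D5:**
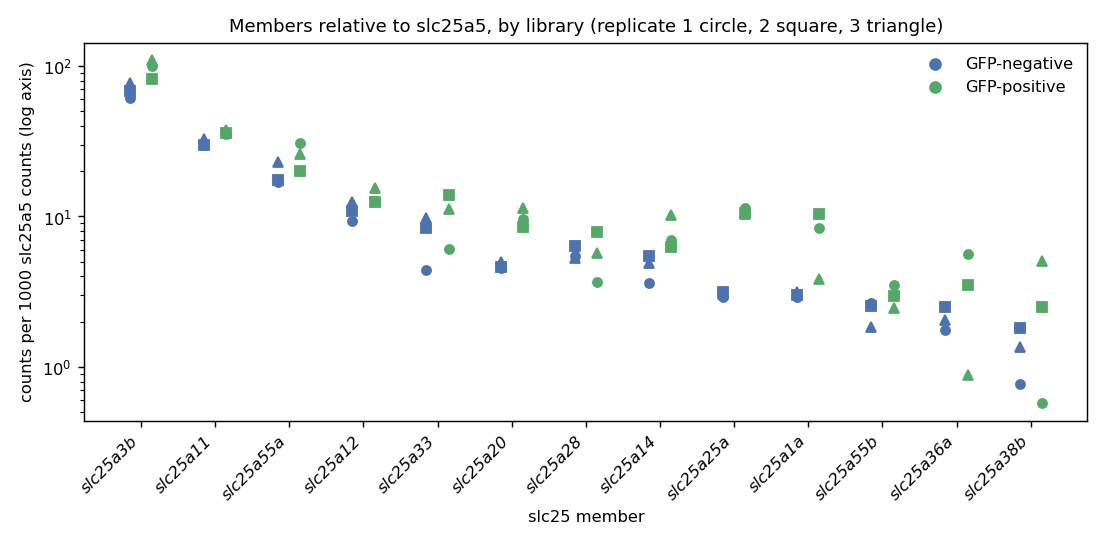
Counts per 1000 slc25a5 counts (y axis, log scale) of the 13 slc25 members with the most counts after slc25a5, in each library (blue GFP-negative, green GFP-positive). slc25a25a and slc25a20 are higher in all 3 GFP-positive libraries, with means of 10.8 against 3.04 and 9.87 against 4.71.

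Relative to the summed counts of the 10 cardiomyocyte markers, the 4 lower members and slc25a3b differed less than in CPM. On this scale slc25a20 and slc25a25a differed more. All slc25 members together stood at 272 ± 5.02 counts per 1000 marker counts in GFP-negative and 233 ± 13.9 in GFP-positive libraries. That is 1.17-fold lower by the means and without overlap. slc25a5 stood at 230, 234 and 227 counts per 1000 counts of the 10 markers in GFP-negative libraries and 179, 200 and 177 in GFP-positive libraries, which is 1.25-fold lower by the means and without overlap. slc25a11 (7.10 ± 0.298 against 6.68 ± 0.425 per 1000), slc25a12 (2.51 ± 0.360 against 2.51 ± 0.237), slc25a28 (1.32 ± 0.155 against 1.08 ± 0.461) and slc25a3b (15.9 ± 1.74 against 17.9 ± 1.48) overlapped between the groups on this scale. slc25a20 was 1.67-fold and slc25a25a 2.84-fold higher per marker count in GFP-positive libraries, both without overlap (1.09 ± 0.0407 against 1.82 ± 0.178 and 0.702 ± 0.0330 against 1.99 ± 0.129 per 1000, SD, n = 3). The markers were themselves lower in GFP-positive libraries, so a gene with unchanged CPM is higher on this scale. The sum rests most on myl7, actc1a and cmlc1, the markers with the most counts, all called lower (log2 fold changes -0.98, -0.71 and -1.08). Of the 10 markers 6 were called lower and 4 were not, namely ttn.2, ttn.1, ryr2b and atp2a2a (-0.22, -0.49, -0.53 and -0.48). Ratios to those 4 alone were not computed, so the smaller differences hold for this sum only. How many of all genes were higher per marker count was not computed, so these 2 values have no background beside them. Relative to mitochondrially encoded transcripts, slc25a5 stood at 131, 119 and 165 counts per 1000 in GFP-negative libraries and 16.3, 17.7 and 21.2 in GFP-positive libraries, a 7.52-fold difference. Mitochondrially encoded transcripts took on average 14.1% of GFP-negative and 40.3% of GFP-positive counts, so a gene with unchanged CPM is lower on this scale. No background over all genes was computed for it.

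Most listed mitochondrial transporters with other symbols leaned the same way. This list includes ucp1, ucp2, ucp3 and mtch2, which belong to the family under other symbols, so it is not wholly an outside comparison. Of 24 tested, 5 fell (against 2.13% of all tested genes) and 19 did not pass, with a median log2 fold change of -0.70. Fold changes were negative for 21 and positive for 3. Of these 3, mcu was higher in all 3 GFP-positive libraries but did not pass (1.78 ± 0.66, edgeR adjusted p = 0.192). vdac2 and vdac3, channels of the outer membrane through which ADP and ATP pass, fell by 1.19 ± 0.17 and 0.91 ± 0.15 on the log2 scale (adjusted p = 0.0163 and 0.0259). The related vdac1 overlapped between the groups (-0.13 ± 0.18, adjusted p = 0.827). mtch2, an outer-membrane relative of the carriers, fell from 330 ± 8.24 to 187 ± 8.29 CPM (-0.82 ± 0.14, adjusted p = 0.0264), and sfxn4, a sideroflexin, by 0.95 ± 0.20 (adjusted p = 0.0448). The pyruvate carrier subunit mpc2 also fell (-0.91 ± 0.19, adjusted p = 0.0489). Of 15 genes that import carrier proteins into the inner membrane, 15 had negative fold changes (median -0.67), against 49.5% of all tested genes. None passed edgeR's test, and 5 were lower at an unadjusted p under 0.05, against 1320 of 13490 genes. Over these lists, with the shuttle enzymes and carnitine partners, 11 of 54 tested genes fell (20.4%, against 2.13% of all tested genes) and none rose. Leaving out GFP-negative replicate 1, 2 or 3 made this count 1, 5 or 1, and leaving out GFP-positive replicate 1, 2 or 3 made it 2, 2 or 15.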

How the data were processed

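The authors deposited whole-number total counts per gene for 6 libraries, with no normalization, per the file headers. Tissue was treated with collagenase (3 mg/ml, 30 min) before the sort, and cDNA was amplified with SMART-Seq v4, per the labels' protocols. Aligner, counting rules, build and annotation were not given in the sources used here. No coordinates are printed, and overlapping or near-identical genes are uncertain. In the RefSeq (GRCz12tu) annotation 21 of the 56 members overlap another gene. Among them are slc25a3b, slc25a13, slc25a18, slc25a36a, slc25a38b and slc25a44b. RefSeq lists no such gene for slc25a5, slc25a11, slc25a12 or slc25a28.

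Counts were fitted with edgeR 4.0.16 (R 4.3.3): filterByExpr, TMM scaling, quasi-likelihood F test with robust fitting and group as the only term, Benjamini-Hochberg over 13490 genes, threshold 0.05. Each SE is the fold change divided by the square root of F. Alternatives used DESeq2 1.42.0, limma 3.58.1, other scalings and filters, the replicate block, and each library left out. Members and lists were chosen with earlier results of these data known. Named were all called members, the carriers of ATP, phosphate, carnitine, aspartate and glutamate, iron and glycine, the 10 members with most counts, and copies with at least 100 counts each. Other members named were chosen after their values were seen. No transcript lengths were at hand, so the planned levels per length were not computed. Of the partner genes 60 of 63 matched a row, and of the marker genes 72 of 76.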

Additional observations from a re-analysis of the deposited data

How the results depend on the processing

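The count of 4 lower members was 2 with DESeq2's size factors, with mitochondrially encoded genes removed and with limma-voom, 9 with the DESeq2 test, 6 with upper-quartile factors and without a composition factor, 5 with the CPM filter, 4 with no filter, and 0 to 4 in the 6 fits that left out 1 library (1, 2 or 0 when the library left out was GFP-negative replicate 1, 2 or 3, and 0, 0 or 4 when it was GFP-positive replicate 1, 2 or 3). Of the 4 lower members, 3 were also called without GFP-positive replicate 3. Over all genes, those 6 fits called 44 to 1018 genes against 568. The count of 0 higher members was 1 with the DESeq2 test (slc25a25a). Over all genes, the DESeq2 test called 938 higher and 729 lower. slc25a5 kept its call under all 9 alternatives that used every library, and slc25a11 under all but limma-voom. The 11 lower partner genes numbered 20 without a composition factor, 23 with the DESeq2 test and 1 to 15 in the fits that left out 1 library. The median log2 fold change of tested members, -0.56, was -0.97 with limma-voom and -0.99 with the replicate block, and lay between -0.52 and -0.76 otherwise. Over all genes the median was 0.01, and -0.11 with upper-quartile factors, -0.16 without a composition factor, -0.30 with limma-voom and -0.29 with the block. Upper-quartile factors split all calls into 258 higher and 450 lower genes, and no composition factor into 196 and 507, against 280 and 288. Mean slc25 shares of 2.27% and 0.922% were 2.64% and 1.55% with mitochondrially encoded counts left out.

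With the replicate block 5 members fell, the 4 and slc25a3b (adjusted p = 0.0298). Each library's deviations from its group mean were correlated across genes between the groups. Same-numbered libraries gave 0.131, 0.187 and 0.0922, and differently numbered libraries gave negative values only (-0.121 to -0.0123). Deviations from a group mean cancel within the group, so positive same-number values force the others to be negative in sum. The negative values are therefore not a separate observation. Every library correlated best with its own number, but not every value passed 0.1, so the numbers were not taken as pairs in the main fit. Whether they mark pairs is not known. Fold changes of slc25a13 turned to -3.46 with limma-voom, -2.97 with the block and -6.82 without GFP-positive replicate 3. Among the members named by the rules above, fits without 1 library also changed sign for slc25a20 (-0.271 to 0.0277), slc25a38b (-1.006 to 0.386), slc25a44b (-1.68 to 0.0580) and slc25a18 (-1.46 to 0.0439). None of them was called, and such fits ranged to 2.003 for slc25a13. Signs also changed over the 15 alternatives for other members, among them slc25a1a (-0.117 to 0.397) and slc25a39 (-0.371 to 0.0925). The cause was not tested. Levels per length, with counts alone as their alternative, were not run. Depth limits members with few counts: 13 could not be tested.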
